A study of Homo sapiens with 6 samples.

Results

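The genes described here are 9 genes of the megakaryocyte lineage, namely ITGA2B, ITGB3, GP1BA, GP9, PF4, VWF, TUBB1, FLI1 and RUNX1, taken by name from GENCODE gene symbols after the transcript identifiers in the count tables were matched to an annotation. Each of the 9 had 1 counted transcription unit (TU), out of 37255 TUs used in all and 18964 that were protein-coding and are called mRNAs below. The libraries were 2 PRO-seq and 4 total RNA-seq libraries from untreated K562 cells, a chronic myelogenous leukemia line that is a single line and not a megakaryocyte culture. All 6 libraries came from cells of 1 flask per the study's methods, so that p-values measure only the spread between libraries. PRO-seq counts engaged RNA polymerases along a TU, and total RNA-seq after rRNA depletion counts RNA at steady state. The libraries held between 5732780 and 9002746 counts on TUs for RNA-seq and 6993816 and 7245632 for PRO-seq. The RNA-seq libraries fell into close pairs, with 68.5% and 68.6% of records naming no TU in replicates 1 and 3 and 66.5% in each of replicates 2 and 4. The labels do not say what the pairs are, and an SD over 4 libraries counts all of them as separate.

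Megakaryocytes are the large marrow cells that shed platelets, and they arise from progenitors shared with the erythroid lineage, which is why K562 cells, which are largely erythroid in character, have been used to study both. A platelet binds fibrinogen through the integrin made of the products of ITGA2B and ITGB3, and binds von Willebrand factor, the product of VWF, through the GP Ib-IX-V complex, of which GP1BA and GP9 encode subunits. PF4 encodes a chemokine stored in alpha granules, TUBB1 the tubulin of the platelet's marginal band, and FLI1 and RUNX1 encode transcription factors of the lineage that bind ETS and RUNX motifs. The RNA-seq level, the PRO-seq level and their ratio, a relative half-life with no time unit, were compared for each gene. A PRO-seq level reflects both how often polymerases enter a TU and how fast they move, and these cannot be told apart here. Likewise, in bulk cells, few cells with a transcript and little of it in every cell cannot be told apart.

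The identity of the cells was checked first against marker genes. Of 11 matched K562 and erythroid markers, 11 lay above 1 TPM in RNA-seq (TPM are counts scaled by TU length and by the library's total), and their summed level ran from 12270 to 13120 TPM in the 4 libraries. For the 9 megakaryocyte genes, 4 lay above 1 TPM and the summed level ran from 36.4 to 39.2 TPM. Most mRNAs lay above 1 TPM as well, since their median was 2.67 TPM. ITGB3, the lowest of the 4 genes, stood at the 44.9th percentile of mRNAs. Both sums rest largely on few genes, HBG2 (6287 TPM), HBE1 (3104 TPM) and HBG1 (1828 TPM) for the erythroid list and ITGA2B (26.6 TPM) for the 9 genes. GATA1 and TAL1 are among the erythroid markers and also in the wider megakaryocyte list described below. Of the other lists, 2 of 5 matched myeloid markers, 1 of 4 lymphoid markers (PTPRC), 1 of 5 stromal markers and 0 of 2 endothelial markers lay above 1 TPM. The label of the 9 genes therefore describes their known lineage, and only some of them lay above 1 TPM in these cells. RUNX1, which is 1 of the 4, was counted over a transcript with 3.47% of its canonical exon bases.

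Sequence upstream of the start was available for 4 of the 9 genes, and 3 are shown because they belong to a gene with counts in both assays (ITGA2B, TUBB1) and to one with nearly none (GP9). They are the 250 bases before the RefSeq start, 5′ to 3′ on the gene's strand, on GRCh38.p14, at chr17:44389650-44389899 (minus strand), chr20:59019179-59019428 (plus strand) and chr3:129060529-129060778 (plus strand). Capitals mark the letters GATAA or GATAG (bound by GATA factors), GGAAG (the core of many ETS motifs) and TGTGGT (the core of the RUNX motif), searched on both strands, so that CTATC and CTTCC are matches on the other strand.
ITGA2B: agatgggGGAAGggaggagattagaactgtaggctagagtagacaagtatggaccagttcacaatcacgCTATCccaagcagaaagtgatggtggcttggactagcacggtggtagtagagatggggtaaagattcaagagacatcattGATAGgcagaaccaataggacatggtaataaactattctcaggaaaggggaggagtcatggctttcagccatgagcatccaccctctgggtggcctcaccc
TUBB1: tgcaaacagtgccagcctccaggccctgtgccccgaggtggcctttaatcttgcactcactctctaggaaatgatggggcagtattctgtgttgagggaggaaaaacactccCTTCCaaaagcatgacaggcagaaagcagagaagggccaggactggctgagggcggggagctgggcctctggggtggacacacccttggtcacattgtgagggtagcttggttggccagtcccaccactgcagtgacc
GP9: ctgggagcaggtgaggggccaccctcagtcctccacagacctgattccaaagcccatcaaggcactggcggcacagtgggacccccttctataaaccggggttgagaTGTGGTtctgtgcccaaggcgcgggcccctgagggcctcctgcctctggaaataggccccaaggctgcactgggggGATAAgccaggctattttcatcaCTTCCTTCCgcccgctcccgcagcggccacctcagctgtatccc
Counting back from -1 at the base before the start, the ITGA2B window held 2 GATA matches, with their first bases at -181 and -101, and 1 ETS match at -243. The GP9 window held 1 GATA match at -67, 1 RUNX match at -143 and 2 ETS matches, at -44 and -40, that overlap by a single base. TUBB1 held 1 ETS match, at -138, and the RUNX1 window, not printed, held 0 of the 3 motifs. The RUNX1 window lies before a RefSeq start (chr21:34888700-34888949, minus strand). It need not be the start of the counted RUNX1 TU, which begins far upstream of the canonical start. Such letters are common, since 31.9% of 35116 RefSeq promoters of the same length held the GATA letters, 65.1% the ETS letters, 11.0% the RUNX letters and 2.38% all 3. A match is a description of the sequence and not a bound site, and the motifs were picked after the sequences had been seen.

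ITGA2B, the alpha subunit of the fibrinogen receptor and the gene of the first sequence above, had the highest measured level of the 9 in both assays. Its counted transcript (ENST00000262407, chromosome 17:42449549-42467017 on GRCh37, minus strand, 30 exons) is the canonical one and shared no base with another TU. RNA-seq levels were 28.5, 25.6, 26.6 and 25.7 TPM in replicates 1 to 4 (26.6 ± 1.33, SD, n = 4), from 385, 365, 242 and 268 counts. PRO-seq levels were 50.2 and 58.7 TPM in replicates 1 and 2 (54.5 ± 6.002, SD, n = 2), from 214 and 255 counts. The 4 RNA-seq libraries thus lay close together and below both PRO-seq libraries on the TPM scale, which is set separately in each assay. Most mRNAs had that order too, with a median log2 ratio of RNA-seq to PRO-seq TPM of -1.27 where each assay held at least 1 count. Among mRNAs, ITGA2B stood at the 73.6th percentile of RNA-seq level and the 79.8th percentile of PRO-seq level. The mRNAs nearest to it on both log2 scales were NAPA (PRO-seq 54.6 TPM, RNA-seq 26.7 TPM) and KLHDC4 (PRO-seq 54.7 TPM, RNA-seq 26.9 TPM), at log2 distances of 0.0050 and 0.013 over the summed libraries.

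ITGB3, the beta subunit that pairs with the ITGA2B product, was far lower than its partner. RNA-seq levels were 0.822, 1.23, 0.838 and 1.35 TPM in replicates 1 to 4 (1.06 ± 0.269, SD, n = 4), from 19, 30, 13 and 24 counts, with replicates 1 and 3 below replicates 2 and 4, the pairs described above. In PRO-seq, replicate 1 held 1 count and replicate 2 held 0. The RNA-seq TPM of ITGA2B, summed over libraries, was 25.02 times that of ITGB3. Within RNA-seq libraries the log2 ratio of ITGA2B to ITGB3 was 5.11, 4.38, 4.99 and 4.25, so that the order held in 4 of 4 libraries. The planned comparison of this ratio between assays could not be made, since a PRO-seq library had no ITGB3 count.

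The PRO-seq value of ITGB3 cannot be read as its transcription. Its counted transcript (ENST00000559488, chromosome 17:45331193-45391109 on GRCh37, plus strand, 15 exons) shares 59847 bases with another counted TU on the same strand, the read-through gene ENSG00000259753 (45331263-45421658), which starts 70 bases downstream and runs past the end of ITGB3. Of the bases counted for ITGB3, 70 of 58917 in PRO-seq (0.119%) and 3675 of 5941 exon bases in RNA-seq (61.9%) were shared with no such TU. Bases shared on 1 strand were mostly not counted in these tables. Of 2597 TUs whose PRO-seq bases were all shared on the same strand, 2.35% had any count, against 58.2% of 4631 TUs whose bases were all shared only with a TU on the other strand. Over its unshared bases, the RNA-seq level of ITGB3 was 1.72 TPM (95% Poisson interval 1.38 to 2.13, counting error only), which left ITGA2B 15.5 times higher. The single PRO-seq count over 70 bases came to 27.4 TPM with an interval of 0.693 to 152, so that a level as high as that of ITGA2B and one far below it were both within reach of 1 count.

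Polymerases were counted downstream of ITGB3. The read-through TU held 29 and 38 PRO-seq counts over its 11211 unshared bases, most of which lie past the end of ITGB3, or 11.5 TPM (95% Poisson interval 8.87 to 14.5), and 0 RNA-seq counts, having no unshared exon base. EFCAB13-DT, a noncoding TU on the other strand that overlaps the end of ITGB3, held 115 PRO-seq counts. The part of either in the RNA-seq level of ITGB3 was not tested. Sharing of this extent was uncommon, with 946 of 18964 mRNAs (4.99%) having under 1% of PRO-seq bases unshared.

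**Figure D1:**
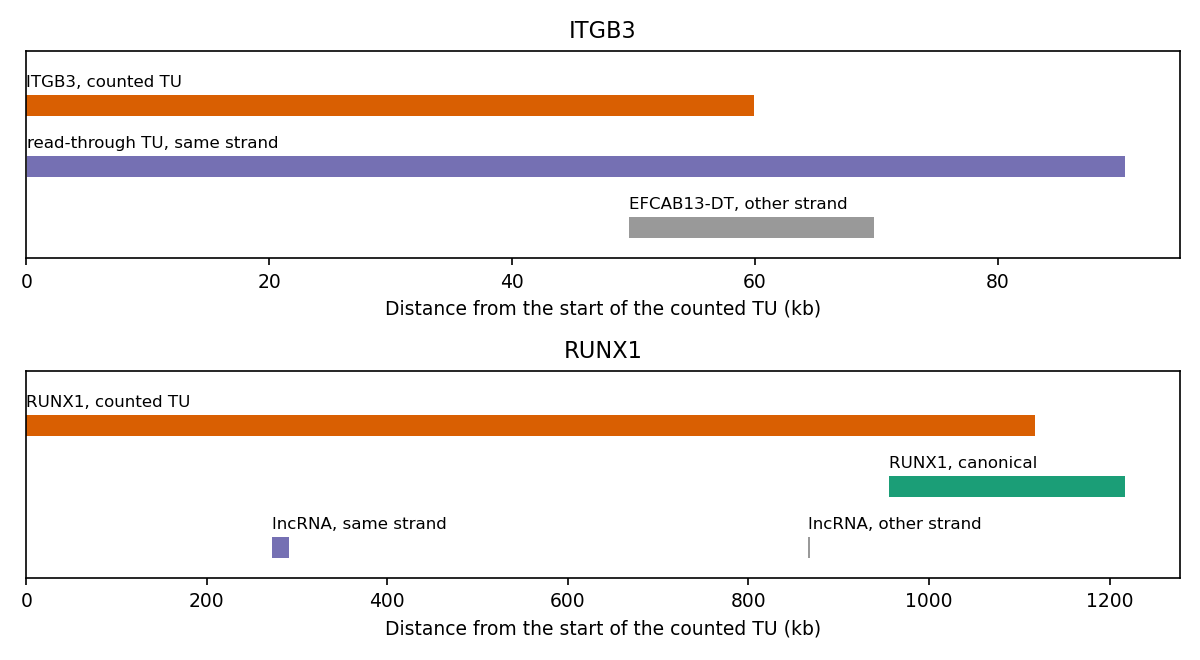
Counted TUs around ITGB3 (top) and RUNX1 (bottom), drawn to scale in kb from the start of the counted TU in the direction of transcription. Orange bars are the counted TUs, purple bars other TUs on the same strand, grey bars TUs on the other strand and the green bar the canonical RUNX1 transcript. The read-through TU covers all but the first 70 bases of ITGB3, and the counted RUNX1 TU begins far upstream of the canonical start and ends inside the canonical transcript.

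The subunits of the von Willebrand factor receptor among the 9 genes were at or near 0 counts. GP1BA (ENST00000329125, chromosome 17:4835572-4838318) had 1 RNA-seq count, in replicate 2, and 0 PRO-seq counts. GP9, whose promoter is printed above (ENST00000307395, chromosome 3:128779622-128781249), had 3 RNA-seq counts, all in replicate 2, and 0 PRO-seq counts. Counts that fell in a single library give no usable mean, and no ratio was fitted for either gene. Both genes are short, and after 500 bases were left out at each end only 1747 bases of GP1BA and 628 of GP9 remained for PRO-seq. A count of 0 over both PRO-seq libraries, taken as an upper limit of 3 counts, therefore allowed up to 3.29 TPM for GP1BA and 9.15 TPM for GP9. CHRNE, on the other strand across much of GP1BA, held 569 PRO-seq counts.

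The remaining subunits of the complex, GP1BB and GP5, are in the wider list described below. GP1BB had 382, 378, 241 and 269 RNA-seq counts and 67 and 90 PRO-seq counts, which is an RNA-seq level of 97.4 TPM and a PRO-seq level of 1290 TPM over a window of only 233 bases. Of its 959 exon bases, 555 were shared with no TU of the same strand. GP5 had 8 RNA-seq counts (0.166 TPM) and 16 PRO-seq counts (12.1 TPM) over the summed libraries. The 4 subunit genes thus ran from near 0 to levels above most mRNAs, with the windows behind them very unequal.

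VWF, the ligand of that receptor, had PRO-seq counts and almost no RNA-seq counts. Its TU (ENST00000261405, chromosome 12:6058043-6233836, minus strand, 52 exons) leaves 174794 bases for PRO-seq and shares none. RNA-seq counts were 3, 0, 0 and 0 in replicates 1 to 4. PRO-seq counts were 26 and 45, or 0.575 and 0.977 TPM. Both PRO-seq libraries thus held reads in the TU, while 3 of 4 RNA-seq libraries held none, so that no ratio could be formed without RNA-seq replicate 1. The ratio of RNA-seq to PRO-seq TPM was 0.0321 (95% exact binomial interval 0.00647 to 0.0977, counting error only). At the median ratio of mRNAs with at least 1 count in each assay, 38.8 RNA-seq counts would stand beside these PRO-seq counts. VWF is also a classic endothelial gene, and the 2 matched endothelial markers, neither of them at 0, had a summed RNA-seq level of 0.377 to 0.560 TPM per library.

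PF4, the alpha-granule chemokine, had 0 counts in all 6 libraries. Its TU (ENST00000296029, chromosome 4:74846528-74847744, 3 exons) leaves 217 bases for PRO-seq, one of 149 mRNAs (0.786%) with fewer than 250. The upper limit at 3 counts was 0.285 TPM in RNA-seq but 26.5 TPM in PRO-seq, which is above the minimum of 10 TPM used for half-life. Transcription of PF4 was thus not detectable at this depth over a wide range of levels, while its RNA-seq level was at most the lower of these limits.

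TUBB1, the platelet tubulin whose promoter is printed above, ranked next after ITGA2B by measured level in both assays. RNA-seq levels were 7.43, 7.19, 5.995 and 6.53 TPM in replicates 1 to 4 (6.79 ± 0.652, SD, n = 4), from 96, 98, 52 and 65 counts. PRO-seq levels were 13.7 and 14.6 TPM (14.1 ± 0.678, SD, n = 2), from 22 and 24 counts. As for ITGA2B, the 4 RNA-seq values were lower than both PRO-seq values on the TPM scale, which is set separately in each assay. The order does not set either gene apart. The median log2 ratio of RNA-seq to PRO-seq TPM was -0.64 for mRNAs past the TPM minimums and -1.27 for those with at least 1 count in each assay. TUBB1 stood near the middle of mRNAs, at the 56.9th percentile in RNA-seq and the 55.3rd in PRO-seq. Its nearest mRNAs on both log2 scales were ANKRD37 and ARHGAP45, at log2 distances of 0.015 and 0.038. The TU (ENST00000217133, chromosome 20:57594484-57601709, 4 exons) overlaps the end of ATP5F1E on the other strand over 1180 bases, and ATP5F1E held 11128 RNA-seq counts, whose part in the TUBB1 level was not tested.

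The log2 ratio of ITGA2B to TUBB1 was 1.94, 1.83, 2.15 and 1.98 in the RNA-seq libraries and 1.88 and 2.01 in the PRO-seq libraries, so that the assays overlapped. The difference of the means was 0.03 on the log2 scale (exact permutation test over libraries, two-sided p = 0.933, the smallest possible being 0.133), which with 4 against 2 libraries cannot pass 0.05. The pair was chosen after its values had been seen and TUBB1 had 46 PRO-seq counts in all, so that the values are a description and do not show that the proportion is the same.

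FLI1, an ETS factor that activates many platelet genes, was close to absent. It had 1 count in each of the 4 RNA-seq libraries (0.0888 ± 0.0192 TPM, SD, n = 4) and 6 counts in each of the 2 PRO-seq libraries (0.183 TPM). The equal counts hold no information on the spread beyond counting error, and the exact binomial interval of the ratio of 0.470 ran from 0.110 to 1.55. The counted transcript (ENST00000344954, chromosome 11:128556430-128683161, 7 exons) is not the canonical one but holds 85.2% of the canonical exon bases. SENCR, on the other strand near the start, had 0 counts.

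RUNX1, a factor that binds DNA together with the product of CBFB, had many PRO-seq counts and few RNA-seq counts over very unequal lengths. RNA-seq levels were 2.28, 2.46, 2.904 and 2.74 TPM in replicates 1 to 4 (2.60 ± 0.281, SD, n = 4), from 14, 16, 12 and 13 counts over 1582 exon bases. PRO-seq levels were 4.98 and 5.48 TPM (5.23 ± 0.356, SD, n = 2), from 1437 and 1613 counts over 1116623 bases. On the TPM scale RUNX1 lay near the middle of mRNAs in both assays, at the 49.7th percentile in RNA-seq and the 47.0th in PRO-seq.

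These values belong to an unusual transcript of RUNX1. The counted transcript (ENST00000475045, chromosome 21:36259343-37376965, minus strand, 13 exons) holds 207 of 5971 canonical exon bases (3.47%) and 148 of 1440 canonical coding bases (10.3%), and 14.5% of its span lies within the span of the canonical transcript ENST00000675419 (36160098-36421599). Only 3.08% of mRNAs had under 10% of their canonical exon bases counted, and 65 of 18964 had a span above 1 Mb. The RNA-seq level is therefore that of exons mostly outside the canonical RUNX1 exons, and the level of the canonical RNA was not analysed here. If every PRO-seq count lay within the part shared with the canonical span, the PRO-seq level would be 36.1 TPM, 6.90 times the value over the whole TU. The files hold no positions within a TU, so where the counts lay could not be found.

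The log2 ratio of RUNX1 to FLI1 was 4.92, 5.12, 4.70 and 4.82 in RNA-seq and 4.75 and 4.92 in PRO-seq. The ranges overlapped, and the means differed by 0.05 (exact permutation test, two-sided p = 0.800, the smallest possible being 0.133). It was the only planned pair with counts of both genes in every library, so that no adjustment over pairs was needed. The FLI1 side of the ratio rests on 1 count per RNA-seq library.

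The ratio of RNA-seq to PRO-seq was then compared with that of other mRNAs. The log2 ratio of summed TPM was -1.03 for ITGA2B, -1.04 for TUBB1, -1.03 for RUNX1 and -1.09 for FLI1, whereas it was -4.96 for VWF and 5.03 for ITGB3. When each RNA-seq library was set against each PRO-seq library, which gives 8 ratios, the log2 ratio ran from -1.20 to -0.82 for ITGA2B, from -1.29 to -0.88 for TUBB1, from -1.27 to -0.78 for RUNX1 and from -1.38 to -0.70 for FLI1, so that these 4 genes overlapped one another. The nearness of RUNX1 to the others rests on the whole counted span, and its ratio would be -3.82 with every PRO-seq count in the canonical span. The median mRNA had a log2 ratio of -0.64 among 8733 mRNAs past the TPM minimums and -1.27 among 14965 mRNAs with at least 1 count in each assay.

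**Figure D2:**
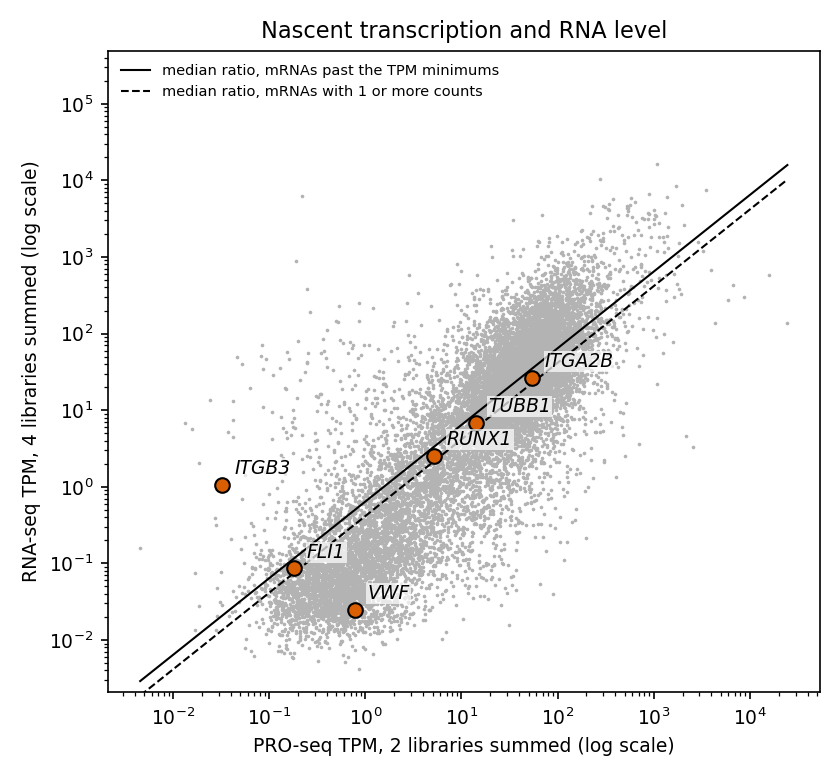
RNA-seq TPM against PRO-seq TPM (both axes log scale, counts summed over libraries) for mRNAs with at least 1 count in each assay (grey) and the 6 megakaryocyte genes with counts in both (orange). Lines mark the median ratio of mRNAs past the TPM minimums (solid) and of all mRNAs shown (dashed). ITGA2B, TUBB1, RUNX1 and FLI1 lie between the lines, VWF below and ITGB3 far above.

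Only ITGA2B and TUBB1 passed both minimums, of 10 TPM (PRO-seq) and of 1 TPM (RNA-seq). Relative to the median mRNA past those minimums, the log2 half-life of ITGA2B was -0.40 ± 0.09 (SE), or 0.760-fold, with an adjusted p of 0.000163 by the quasi-likelihood test of edgeR, adjusted over all TUs by the Benjamini-Hochberg method. For TUBB1 it was -0.40 ± 0.24, with an edgeR adjusted p of 0.106 and a 95% interval of -0.86 to 0.06. The call thus went to 1 of 2 genes below the median and 0 of 2 above, against 50.4% of 10053 TUs tested that were called below and 40% above, so that a call in itself sets neither gene apart. The estimates of both genes lay near the 40th percentile of the 8733 mRNAs tested (40.3 for ITGA2B and 40.2 for TUBB1).

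The direction for ITGA2B depended on which mRNAs set the median. With at least 1 count in each assay and no TPM minimum, the median mRNA was lower and ITGA2B lay 0.26 ± 0.09 above it on the log2 scale (edgeR adjusted p = 0.00601), while centring on the median of all TUs tested, which lies 0.24 below the median mRNA, gave -0.15 (edgeR adjusted p = 0.103). The log2 ratio of its summed TPM, -1.03, does not depend on these settings.

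In that wider set 6 of the 9 genes had a value, and 1 was called below the median mRNA and 2 above, against 37.3% of 21100 TUs called below and 31.6% above. VWF was the one below, at -3.55 ± 0.63 (SE) with an edgeR adjusted p of 3.84e-08. The 2 above were ITGA2B and ITGB3, the latter at 5.89 ± 0.67 (edgeR adjusted p = 4.18e-18), and with lengths limited to unshared bases, an alternative chosen after seeing the data, ITGB3 turned to -2.63 ± 2.03 (edgeR adjusted p = 0.247). RUNX1 at 0.27 ± 0.21 and FLI1 at 0.20 ± 0.95 were not called (edgeR adjusted p = 0.246 and 0.863), and the interval of FLI1 ran from -1.67 to 2.07.

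A wider list of genes known from megakaryocytes and platelets was counted in the same fit. Of 105 genes, 101 were matched, to 102 TUs, since ITGB1 had 2, and 61 TUs (59.8%) passed the minimums, against 46.0% of all mRNAs. Of the 61, 27 (44.3%) lay above the median mRNA, 27 (44.3%) below and 7 were not called. Over all 10053 TUs tested, 40% were called above and 50.4% below. The counts depended on the median used, with 47 above and 24 below where at least 1 count in each assay was required. In that setting 31.6% of 21100 TUs were called above and 37.3% below. Centred on the median of all TUs tested, 30 of the list lay above and 24 below, beside 4574 and 4518 of all TUs. Of the 54 TUs called, 6 had a value below the median mRNA here and above it with at least 1 count required, and 2 of these, LYN (-0.37 to 0.29) and MAFG (-0.31 to 0.35), were called in both directions (edgeR adjusted p from 1.49e-07 to 0.00156). LYN, a Src-family kinase, and MAFG, a partner of NFE2, lie outside the naming rule and were picked after their values were seen. The median log2 half-life of the 61 TUs was -0.12, slightly below the median mRNA on which values are centred. Over all 10053 TUs tested it was -0.24, but only 8733 of these were mRNAs. The shares called above and below over all TUs likewise include TUs that are not mRNAs. The named genes of each group are those with the highest and lowest fitted values among those called and the one with the highest RNA-seq level.

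Among surface receptors, 9 of 23 TUs passed the minimums, with 2 above the median mRNA and 6 below (median -1.79). CD151, a tetraspanin, had the highest RNA-seq level of the group at 197 TPM, beside 45.5 TPM in PRO-seq, and a log2 half-life of 2.75 ± 0.11 (SE). A TU of ITGB1, the common beta-1 integrin subunit, had a log2 half-life of 2.00 ± 0.06, counted over a transcript with 25.2% of the canonical exon bases. GP1BB, the receptor subunit described above, had -3.09 ± 0.16 (edgeR adjusted p = 1.95e-17). ESAM, an adhesion molecule, had -3.24 ± 0.39 from 10 RNA-seq counts over a transcript with 24.9% of the canonical exon bases.

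Genes of granule cargo and granule formation went the other way in number, with 6 of 9 above and 2 below (median 1.12). Among the 6 above, RAB27B, which lies outside the naming rule, was counted over a transcript with 4.01% of the canonical exon bases. SRGN, the proteoglycan that packs granule proteins, reached 304 TPM in RNA-seq and 32.7 TPM in PRO-seq, with a log2 half-life of 3.86 ± 0.08 (SE). TIMP1, a protease inhibitor, had 2.19 ± 0.14, and VAMP8, a SNARE protein of granule release, had the highest RNA-seq level at 442 TPM but only 7.78 TPM in PRO-seq, under the minimum. The counted VAMP8 transcript is not the canonical one and held 85.6% of the canonical exon bases, with 664 exon bases for RNA-seq and 19436 bases for PRO-seq. NBEAL2, needed for alpha granules, had -1.24 ± 0.06, and TGFB1 had -1.71 ± 0.11 over a transcript with 10.9% of the canonical exon bases.

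Cytoskeleton genes passed the minimums most often, 15 of 18, with 10 above and 4 below (median 0.74). MYL6, a myosin light chain, had 1678 TPM in RNA-seq and a log2 half-life of 3.23 ± 0.06 (SE), and FLNA, the filamin that anchors the von Willebrand factor receptor to actin, had 1.93 ± 0.06. MYL6 and FLNA were counted over transcripts with 65.1% and 59.7% of their canonical exon bases. ZYX, a focal adhesion protein, had -2.39 ± 0.11. WDR1, an actin-disassembly factor, had -6.54 ± 0.14, but its counted transcript held 0% of the canonical exon bases. The value is therefore not that of the WDR1 mRNA, though it is among the 4 below.

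Signalling genes and enzymes had 2 of 10 above and 6 below (median -0.41). SYK, a kinase downstream of platelet collagen receptors, had the highest RNA-seq level at 39.6 TPM and a log2 half-life of 1.08 ± 0.06 (SE), and PRKCQ, a protein kinase C, had 0.23 ± 0.07. RAP1B, the small GTPase that acts on the fibrinogen receptor, had -1.31 ± 0.05. LCP2, the adaptor SLP-76, had -2.89 ± 0.06, from a PRO-seq level of 147 TPM and an RNA-seq level of 12.8 TPM.

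Transcription factors had 7 of 18 above and 9 below (median -0.22). NFE2, a factor of late megakaryocytes, had the highest RNA-seq level at 241 TPM and a log2 half-life of -0.06 ± 0.05 (SE, edgeR adjusted p = 0.286). CBFB, the partner of RUNX1, had 1.94 ± 0.05, and GFI1B, a repressor shared by the erythroid and megakaryocyte lineages, had 1.504 ± 0.08. ZFPM1, the GATA1 cofactor also called FOG1, had -3.18 ± 0.07, and IKZF5 had -2.65 ± 0.11. Each count stands beside the 40% above and 50.4% below of all TUs tested, which include TUs that are not mRNAs. No test was made of the groups against each other.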

How the data were processed

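The authors deposited raw HTSeq counts per transcript for 2 PRO-seq and 4 total RNA-seq libraries. Reads had been cut with Cutadapt and aligned to GRCh38 with HISAT2, and no scaling was applied. Exons were counted for RNA-seq and the TU without 500 bases at each end for PRO-seq, per the study's methods, while the label says only 500 bp. The setting for strand and the version of each tool were not given in the sources used here. Of 42371 transcripts listed, 37339 (88.1%) matched GENCODE v44 lifted to GRCh37 by identifier, and all lengths and coordinates are of that build, except promoters (RefSeq, GRCh38.p14). Records naming no TU were 66.5% to 68.6% of an RNA-seq library and 86.5% and 88.6% of the PRO-seq libraries, and were left out, as were 84 TUs of 1000 bases or fewer.

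TPM used exon length for RNA-seq and span minus 1000 bases for PRO-seq. Half-life was tested with edgeR 4.0.16 (R 4.3.3) by its quasi-likelihood test, with TMM, length offsets and Benjamini-Hochberg adjustment over all TUs past both minimums (PRO-seq 10 TPM, RNA-seq 1 TPM, in summed counts), centred on the median mRNA. edgeR was tested on simulated data. DESeq2 1.42.0 was an alternative, as were other filters, lengths, centring, a replicate block and each library left out. Counting intervals and limits at 3 counts cover counting error only, since reads with no molecular identifier cannot be taken as independent molecules. The genes, lists and tests were chosen with earlier results of these data known. Named were the 9 genes, 2 highest and 2 lowest called TUs and the highest RNA-seq TPM in each group of the wider list, and the 2 nearest mRNAs of a tested gene. Python 3.11.15 was used elsewhere.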

Additional observations from a re-analysis of the deposited data

How the results depend on the processing

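ITGA2B kept its direction and call in 13 of 16 alternatives (-0.49 to -0.28), and TUBB1 its direction, uncalled, in 13 of 15 (-0.46 to -0.16), having no value at 20 TPM in PRO-seq. With at least 1 summed count in each assay, ITGA2B was at 0.26 and TUBB1 at 0.26, 6671 TUs lay above the median mRNA and 7880 below, 47 TUs of the wider list lay above and 24 below, and 2 of the 9 genes lay above. With the same minimum of 1 count and, in addition, lengths of unshared bases, added after seeing the data, these were 0.32 and 0.31, 6611 and 7788 TUs, 48 and 23 TUs, and 1 gene, and ITGB3 was at -2.63. The lower minimum, which tests more TUs and moves the median mRNA, gave the change in sign of ITGA2B and TUBB1 without the change in lengths. Centring on the median of all TUs gave -0.15 for ITGA2B and 0 of the 9 genes below, and 30 TUs of the wider list above and 24 below, and 4574 TUs above and 4518 below, where 4019 and 5066 stood before. With at least 10 counts RUNX1 was at -0.27. By CPM without length, ITGA2B was at percentile 75.0 in RNA-seq and 68.4 in PRO-seq and TUBB1 at 58.0 and 41.0, and with 500 bases removed TUBB1 was at 54.9 in PRO-seq.

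With each library left out, ITGA2B ran from -0.49 to -0.30 and TUBB1 from -0.46 to -0.36. With the close RNA-seq pairs (1 with 3, 2 with 4) summed, ITGA2B was at -0.40 (edgeR adjusted p = 0.000709), TUBB1 at -0.40 (edgeR adjusted p = 0.117), and the wider list had 27 TUs above and 27 below. The replicate numbers did not pair the libraries (correlation of replicate differences between assays -0.0067 over 9962 TUs), and with a replicate block ITGA2B was at -0.38 (edgeR adjusted p = 0.00271) and TUBB1 at -0.31, with 3929 TUs above and 4964 below. RNA-seq replicates 3 and 4 have no PRO-seq library of the same number, so the block took the assay difference from replicates 1 and 2 only. DESeq2 gave 3895 TUs above and 4919 below. Depth limits GP1BA, GP9, PF4, FLI1 and VWF, which hold at most 4 RNA-seq counts each.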
